A study of Homo sapiens with 4 samples.

Results

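TMEM126A was overexpressed in Ca1a cells, and the transcripts of this culture were compared with those of a Ca1a culture that carried a control vector. Every gene with a mean of at least 100 reads over the 2 libraries was taken, which gave 10238 of the 39261 genes in the tables. Ca1a (MCF10-Ca1a) is a malignant derivative of the MCF10A human mammary epithelial line. Both cultures had been transduced by lentivirus, the control with the pCDH vector, and were used between passages 10 and 15. They were kept in DMEM/F12 with 5% horse serum, 10 ug/ml insulin, 20 ng/ml EGF, 100 ng/ml cholera toxin and 0.5 ug/ml hydrocortisone. The other 2 libraries of the study came from the line MDA-MB-231, one after knockdown of TMEM126A and one with the sh-NC control vector, grown in L15 with 10% FBS, and are used only where they are named.

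TMEM126A is a protein of the mitochondrial inner membrane that helps to assemble respiratory complex I, the entry point of electrons from NADH into the respiratory chain. Its loss in people causes an optic atrophy. Complex I is built from modules that form separately, and TMEM126A acts on a module of the distal membrane arm, the part farthest from the matrix arm. Laminin-332, which recurs below, is the basement membrane protein to which basal epithelial cells anchor through hemidesmosomes.

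With 1 library in each group, nothing below has a replicate check. Differences between the cultures that have nothing to do with TMEM126A cannot be told apart from its effect. Values are read counts per gene with ratios in 95% counting intervals, which are exact conditional binomial (Clopper-Pearson) intervals and cover counting error only. A gene is called here if its ratio reached 1.5-fold in either direction and its interval left out 1. The control library held 21302171 reads and the overexpression library 21359273, so ratios of counts needed no rescaling.

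TMEM126A itself had 265 reads in the control and 9381 in the overexpression library, which is 35.4-fold higher (31.3 to 40.1). The counts do not separate transcripts of the construct from those of the cell's own gene. The gene lies on chromosome 11, from position 85647967 to 85656547 (plus strand) (GRCh38, GENCODE release 29, as for all positions of genes below). TMEM126B, the paralog next to it and also a complex I assembly factor, had 663 and 702 reads in the control and overexpression libraries, with an interval of the ratio from 0.951 to 1.18. In FPKM, a level per length of transcript, the 14 epithelial markers summed to 2924 in the control and 3146 in the overexpression library. The 15 fibroblast, immune, endothelial and adipocyte markers summed to 40.5 and 35.8, with 13 of 15 under 2 FPKM in both libraries and 6 at 0 reads in both. The remaining 2, the macrophage markers CD68 and CD14, made up most of that sum: CD68 had 34.9 and 28.9 FPKM and CD14 3.81 and 4.65. Among the epithelial markers KRT14 and KRT19 were below the level needed to enter the comparison.

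The transcriptomes of the 2 cultures were close. Over all genes the median log2 ratio of overexpression to control was 0.0078, and from percentile 5 to percentile 95 it ran from -0.29 to 0.29. Beyond counting error, 2063 genes (20.2%) were higher in the overexpression library and 1832 (17.9%) lower. At 1.5-fold, 46 genes (0.449%) were called higher and 62 (0.606%) lower. Of these, 3 genes reached 2-fold in the upward direction, TMEM126A, CTGF and IL7R, and 3 in the downward direction, BMP6, IL11 and the long noncoding RNA LOC105373853. Without TMEM126A the called genes were up to 2.28-fold higher and up to 2.17-fold lower, with a median of 1.61-fold among the lower genes.

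**Figure D1:**
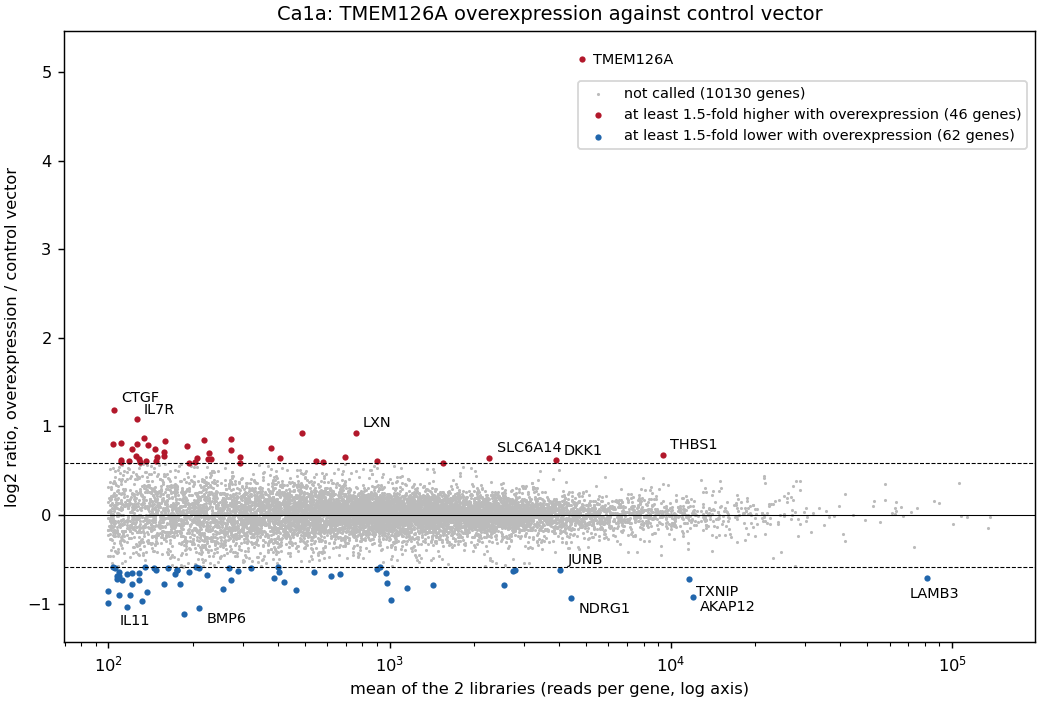
Log2 ratio of overexpression to control (vertical axis) against the mean of the 2 Ca1a libraries in reads per gene (horizontal log axis), 1 point per gene; dashed lines mark 1.5-fold, red points the 46 genes called higher and blue points the 62 called lower. TMEM126A stands alone above 5 on the log2 scale, and all other points lie between -1.12 and 1.19. Labelled among the more abundant called genes are LAMB3, AKAP12, TXNIP, NDRG1 and JUNB on the lower side. On the higher side they are THBS1, DKK1 and SLC6A14, and other abundant called genes carry no label.

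Most called genes were not abundant: their median mean was 198 reads for the higher and 208 for the lower genes, against 922.5 over all genes tested. Only 5 of the higher and 11 of the lower genes had a mean over 1000 reads. In FPKM, all 46 and all 62 kept their direction, while 35 and 51 still reached 1.5-fold. The called genes were protein-coding in 39 of 46 and 54 of 62 cases, against 9718 of the 10238 genes tested. At the limit of 100 reads, ACTBP2 with 129 and 71 reads and CCDC107 with 99 and 101 reads were just inside, and CAMK2N2 with 116 and 83 and CDNF with 100 and 99 reads just outside.

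**Figure D2:**
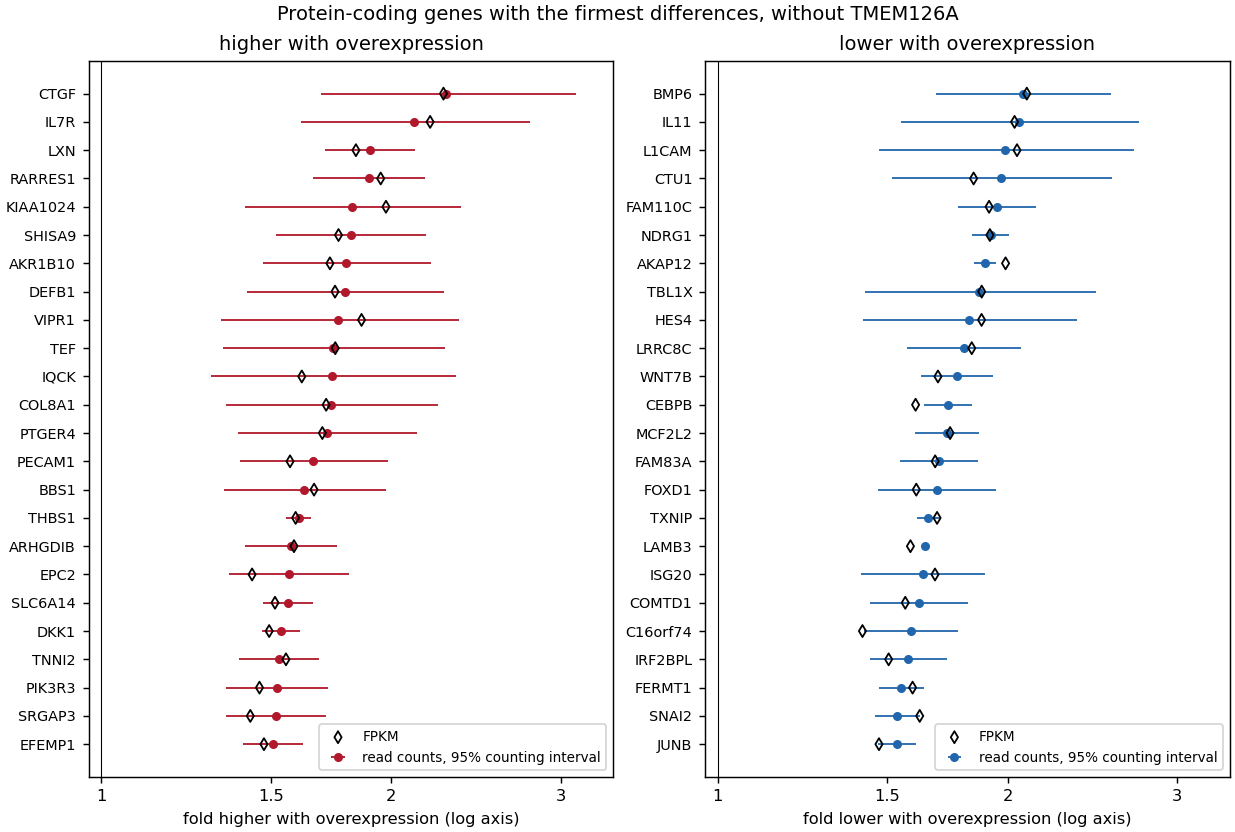
Fold difference (horizontal log axis) of the 24 protein-coding genes on each side, TMEM126A left out, whose counting interval lies farthest from 1; filled points are ratios of read counts with 95% counting intervals and open diamonds ratios of FPKM. Intervals are wide for genes of low count such as CTGF and narrow for LAMB3, and the FPKM ratio of AKAP12, CEBPB, LAMB3 and C16orf74 lies outside the counting interval.

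Among the genes higher with overexpression, several encode secreted proteins that act at the cell surface or in the matrix. THBS1, which encodes the matricellular protein thrombospondin-1, was the most abundant of them. It had 7196 reads in the control and 11531 in the overexpression library, 1.60-fold higher (1.56 to 1.65), and lies on chromosome 15, from position 39581079 to 39599466 (plus strand). DKK1, a secreted inhibitor of WNT coreceptors, had 3083 reads in the control and 4734 in the overexpression library, 1.54-fold higher (1.47 to 1.61). CTGF, a matricellular growth factor of the CCN family and a classical target of the YAP and TAZ coactivators, had 64 reads in the control and 146 in the overexpression library. It was 2.28-fold higher (1.69 to 3.11) on few reads. EFEMP1, which encodes the matrix protein fibulin-3, had 1234 reads in the control and 1860 in the overexpression library, 1.51-fold higher (1.40 to 1.62). COL8A1, a short-chain collagen gene, was 1.73-fold higher (1.35 to 2.24) from 101 and 175 reads.

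The promoters of CTGF, THBS1 and DKK1 are shown because each held the TEAD motif CATTCC, the DNA element bound by the partners of YAP and TAZ. The sequences are the 200 bases before the start site from RefSeq on GRCh38.p14, 5′ to 3′ along the gene, with motif matches in capitals (GGAATG is the same motif on the opposite strand).
CTGF, chr6:131951373-131951572, minus strand: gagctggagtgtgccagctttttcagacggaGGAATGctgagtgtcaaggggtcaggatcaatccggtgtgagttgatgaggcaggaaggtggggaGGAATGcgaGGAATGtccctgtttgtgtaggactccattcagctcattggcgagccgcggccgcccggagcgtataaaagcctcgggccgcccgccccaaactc
THBS1, chr15:39580879-39581078, plus strand: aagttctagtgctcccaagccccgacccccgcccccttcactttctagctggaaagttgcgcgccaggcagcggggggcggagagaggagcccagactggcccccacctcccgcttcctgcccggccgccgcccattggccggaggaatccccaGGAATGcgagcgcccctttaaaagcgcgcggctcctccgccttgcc
DKK1, chr10:52314081-52314280, plus strand: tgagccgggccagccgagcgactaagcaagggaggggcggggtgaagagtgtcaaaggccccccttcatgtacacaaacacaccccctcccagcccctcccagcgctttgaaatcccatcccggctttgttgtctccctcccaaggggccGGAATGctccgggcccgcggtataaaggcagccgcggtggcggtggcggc
CTGF held the motif at 3 positions, first bases -169, -104 and -95 from the start, THBS1 at 1 position (-46) and DKK1 at 1 (-50). A match is a string of letters and not evidence of binding. Among called genes with a promoter in the table, CATTCC on either strand within 250 bases before and 50 after the start was found in 4 of 30 higher genes (13.3%) and 1 of 45 lower genes (2.22%). Over the 8279 tested genes with a promoter the share was 10.4%, and over all 35116 promoters 14%. In the list of YAP and TAZ pathway genes and targets, which holds CTGF, 8 of 23 members were higher, 6 lower and 9 within counting error, with a median log2 ratio of 0.01 (below 0 with TMM scaling). Of these the tissue factor gene F3 was 1.35-fold higher (1.30 to 1.40) and the receptor kinase gene AXL 1.28-fold lower (1.18 to 1.39).

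LXN and RARRES1, neighbours on chromosome 3 that encode related proteins of the latexin family, were higher by nearly the same factor. LXN, a carboxypeptidase inhibitor gene, had 523 reads in the control and 994 in the overexpression library, 1.90-fold higher (1.71 to 2.12). RARRES1, a retinoid-responsive gene, had 336 reads in the control and 637 in the overexpression library, 1.90-fold higher (1.66 to 2.17). LXN lies from 158645822 to 158672693 and RARRES1 from 158696892 to 158732696, with 24199 bp between them. LXN overlaps GFM1, a mitochondrial elongation factor gene on the other strand from 158644278 to 158692575, which was only 1.13-fold higher (1.07 to 1.19). The strand setting of the counting, not given in the sources used here, bears on LXN and GFM1, and their reads may be mixed. MFSD1, whose start overlaps that of RARRES1 on the other strand, had 758 and 821 reads and an interval of the ratio from 0.98 to 1.20. LXN and RARRES1 were thus both higher while the genes they overlap differed by much less. The next closest pair of called genes, IRF2BPL and CIPC on chromosome 14 with 69398 bp between them, stood on opposite sides: IRF2BPL was 1.58-fold lower (1.44 to 1.73) and CIPC, a regulator of the CLOCK protein, 1.52-fold higher (1.24 to 1.86).

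The other genes called higher included receptors, transporters and enzymes. The interleukin-7 receptor gene IL7R had 81 reads in the control and 171 in the overexpression library, 2.11-fold higher (1.61 to 2.79). PTGER4, a receptor gene for prostaglandin E2, was 1.71-fold higher (1.39 to 2.13) and VIPR1, a receptor gene for vasoactive intestinal peptide, 1.76-fold higher (1.33 to 2.35). PECAM1, an adhesion receptor gene best known from endothelium, had 206 reads in the control and 342 in the overexpression library, 1.66-fold higher (1.39 to 1.98), while the endothelial marker VWF had 0 and 1 reads and CDH5 and KDR had 0 in both libraries. SHISA9, an auxiliary subunit gene of AMPA receptors, had 194 and 352 reads, 1.81-fold higher (1.52 to 2.17). TNNI2, a troponin gene of fast skeletal muscle, had 714 and 1091 reads, 1.53-fold higher (1.39 to 1.68). SLC6A14, a transporter gene for neutral and basic amino acids, had 1766 reads in the control and 2760 in the overexpression library, 1.56-fold higher (1.47 to 1.66). AKR1B10, an aldo-keto reductase gene, was 1.79-fold higher (1.47 to 2.20) and DEFB1, a beta-defensin gene, 1.79-fold higher (1.42 to 2.27). TEF, a clock-controlled transcription factor gene, was 1.74-fold higher (1.34 to 2.27), and TJP3, a tight junction scaffold gene, 1.54-fold higher (1.27 to 1.88). Of the noncoding genes called higher, LINC00641 was 1.69-fold higher (1.46 to 1.97), MIR31HG 1.53-fold higher (1.19 to 1.97) and UCA1 1.54-fold higher (1.17 to 2.04). The pseudogenes RPL5P4, HMGN1P38 and KRT8P45 were also called higher, but their reads may belong to their parent genes.

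The most abundant gene called lower was LAMB3, which encodes the beta chain of laminin-332. It had 101605 reads in the control and 61950 in the overexpression library, 1.64-fold lower (1.62 to 1.66), and lies on chromosome 1, from position 209614870 to 209652466 (minus strand). LAMA3, which encodes the alpha chain of the same laminin, had 19480 reads in the control and 17532 in the overexpression library, 1.11-fold lower (1.09 to 1.13). The intervals of the LAMB3 and LAMA3 ratios did not overlap. Genes of the hemidesmosome, which binds this laminin, differed little: ITGA6 was 1.04-fold higher (1.02 to 1.06), ITGB4 1.04-fold lower (1.03 to 1.05), which turned to higher once the trend on GC content was removed, and COL17A1 1.06-fold higher (1.03 to 1.08). ITGA3, whose integrin also binds laminin-332, was 1.14-fold lower (1.12 to 1.16). FERMT1, the gene of the integrin activator kindlin-1, had 3345 reads in the control and 2157 in the overexpression library, 1.55-fold lower (1.47 to 1.64).

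AKAP12, which encodes a scaffold of protein kinases A and C, was the most abundant gene called lower after LAMB3. It had 15668 reads in the control and 8271 in the overexpression library, 1.89-fold lower (1.84 to 1.95), and 1.99-fold lower in FPKM. FAM110C had 1333 reads in the control and 684 in the overexpression library, 1.95-fold lower (1.78 to 2.14). L1CAM, a neural cell adhesion gene, was 1.99-fold lower (1.47 to 2.70) from 133 and 67 reads, a mean at the limit of 100. LRRC8C, a subunit gene of volume-regulated anion channels, was 1.80-fold lower (1.57 to 2.07). FAM83A, whose product acts downstream of EGF receptors, had 1235 and 728 reads, 1.70-fold lower (1.55 to 1.86). NDRG1, induced by hypoxia and by iron loss, had 5807 reads in the control and 3025 in the overexpression library, 1.92-fold lower (1.84 to 2.01). TXNIP, which restrains glucose uptake and thioredoxin, had 14473 reads in the control and 8746 in the overexpression library, 1.65-fold lower (1.61 to 1.70). Its relative ARRDC4, which like TXNIP is induced by the glucose-sensing factor MondoA, had 1095 reads in the control and 716 in the overexpression library, 1.53-fold lower (1.39 to 1.68). A further arrestin-domain gene, ARRDC3, had 920 and 963 reads and an interval of the ratio from 0.955 to 1.15.

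Several genes of secreted signals were called lower. BMP6 had 284 reads in the control and 137 in the overexpression library, 2.07-fold lower (1.68 to 2.56), and BMP2 276 and 173 reads, 1.60-fold lower (1.31 to 1.94). Both encode bone morphogenetic proteins. WNT7B, a WNT ligand gene, had 1473 reads in the control and 832 in the overexpression library, 1.77-fold lower (1.63 to 1.93). IL11, a cytokine gene of the interleukin-6 family, was 2.05-fold lower (1.55 to 2.74) from 156 and 76 reads. The neutrophil chemokine gene CXCL2 was 1.72-fold lower (1.36 to 2.18) from 199 and 116 reads, and IL1RN, the interleukin-1 receptor antagonist gene, 1.54-fold lower (1.24 to 1.93). The receptor gene FGFR1 was 1.56-fold lower (1.18 to 2.08) from 133 and 85 reads, at 0.60 and 0.40 FPKM. IFNGR2, also a receptor gene, was 1.58-fold lower (1.27 to 1.98) from 212 and 134 reads. For IFNGR2 the FPKM, low at 0.44 and 0.17, gave a log2 ratio of -1.42 where the counts gave -0.66. Such a gap was also seen for LOC401320, at -1.30 and -0.74.

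The promoters of IL11, CXCL2 and AKAP12 are shown because they held the elements of 3 inducible factors, in the same format.
IL11, chr19:55370464-55370663, minus strand: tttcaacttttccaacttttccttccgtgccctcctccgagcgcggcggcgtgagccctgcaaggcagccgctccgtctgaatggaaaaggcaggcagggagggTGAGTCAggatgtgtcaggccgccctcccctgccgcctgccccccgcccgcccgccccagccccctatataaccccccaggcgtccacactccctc
CXCL2, chr4:74099196-74099395, minus strand: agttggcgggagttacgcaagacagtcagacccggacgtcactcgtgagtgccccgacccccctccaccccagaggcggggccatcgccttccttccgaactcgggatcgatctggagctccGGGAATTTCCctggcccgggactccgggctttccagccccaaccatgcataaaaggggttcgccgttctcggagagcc
AKAP12, chr6:151239767-151239966, plus strand: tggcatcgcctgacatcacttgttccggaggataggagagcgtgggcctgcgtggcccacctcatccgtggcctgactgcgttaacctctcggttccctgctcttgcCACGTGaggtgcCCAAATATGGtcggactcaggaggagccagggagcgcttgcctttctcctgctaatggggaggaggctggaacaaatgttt
In IL11 the capitals mark the AP-1 motif TGACTCA at -96, read here as TGAGTCA because the match is on the opposite strand. In CXCL2 they mark the kappa-B motif of NF-kB at -78. In AKAP12 they mark the E-box CACGTG at -93 and a CArG box, the element of serum response factor, at -81. The AP-1 motif stood in 5 of 45 promoters of lower genes (11.1%), 1 of 30 of higher genes (3.33%) and 2.98% of tested genes. The E-box stood in 7 of 45 (15.6%), 4 of 30 (13.3%) and 10.5%, and the NF-kB motif in 2 of 45 (4.44%), 0 of 30 and 2.09%. Over all 35116 promoters the shares were 4.95% for AP-1, 7.26% for the E-box and 1.91% for NF-kB. The CArG box stood in 1 of 45 promoters of lower genes (2.22%), 1 of 30 of higher genes (3.33%), 1% of tested genes and 1.29% of all promoters. These counts are small and were not tested.

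Several transcription factor genes were called lower as well. JUNB, a subunit gene of AP-1, had 4903 reads in the control and 3193 in the overexpression library, 1.54-fold lower (1.47 to 1.61). CEBPB, a factor of inflammation and adipogenesis, had 3244 reads in the control and 1871 in the overexpression library, 1.73-fold lower (1.64 to 1.84). SNAI2, which encodes the E-cadherin repressor Slug, had 3385 reads in the control and 2203 in the overexpression library, 1.54-fold lower (1.46 to 1.62). The E-cadherin gene CDH1 itself had 11778 and 11920 reads, a ratio of 1.01 (0.987 to 1.04). HES4 and HES6, which belong to the Hairy and Enhancer of split family, were 1.82-fold lower (1.42 to 2.36) and 1.67-fold lower (1.40 to 1.99), while HES1, the main Notch-induced member, was 1.18-fold lower (1.07 to 1.31). FOXD1 was 1.69-fold lower (1.47 to 1.95) and TBL1X, a corepressor subunit gene, 1.87-fold lower (1.42 to 2.47). CTU1, which encodes an enzyme of tRNA thiolation, was 1.97-fold lower (1.51 to 2.57) from 175 and 89 reads. ISG20, an interferon-induced exonuclease gene, was 1.63-fold lower (1.41 to 1.89). The transcripts of JUNB, CEBPB, HES4, HES6 and FOXD1 are GC-rich, from 64.9% for JUNB to 73.9% for HES4. In the quintile of genes with the highest GC content 30.9% were lower by counts. In FPKM JUNB was 1.47-fold and HES6 1.48-fold lower, under the limit of 1.5-fold. CEBPB, HES4 and FOXD1 were 1.60-fold, 1.88-fold and 1.61-fold lower there. SNAI2, at 41.4% GC, was 1.62-fold lower in FPKM.

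To describe the comparison beyond the called genes, 60 lists of genes were counted against the shares over all genes given above (20.2% higher, 17.9% lower, median log2 ratio 0.0078). Both shares rise with abundance, from 10.8% higher and 10.7% lower in the lowest quintile of genes by mean count to 31.5% and 29.1% in the highest. A count of list members beyond counting error is therefore a description of these 2 libraries and not a test. Of the medians that lie more than 0.05 from 0, several differed by over 1.5 times in FPKM, as did many of those nearer 0. They were smaller there for splicing factors (0.08), ribosome biogenesis (0.03), proteasome (0.03), cytosolic chaperones (0.03), interferon-stimulated genes (0.02), metalloproteases (-0.07) and the upkeep of mitochondrial DNA and RNA (0.04). They were farther from 0 there for integrins (-0.10) and endoplasmic reticulum chaperones (-0.11).

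**Figure D3:**
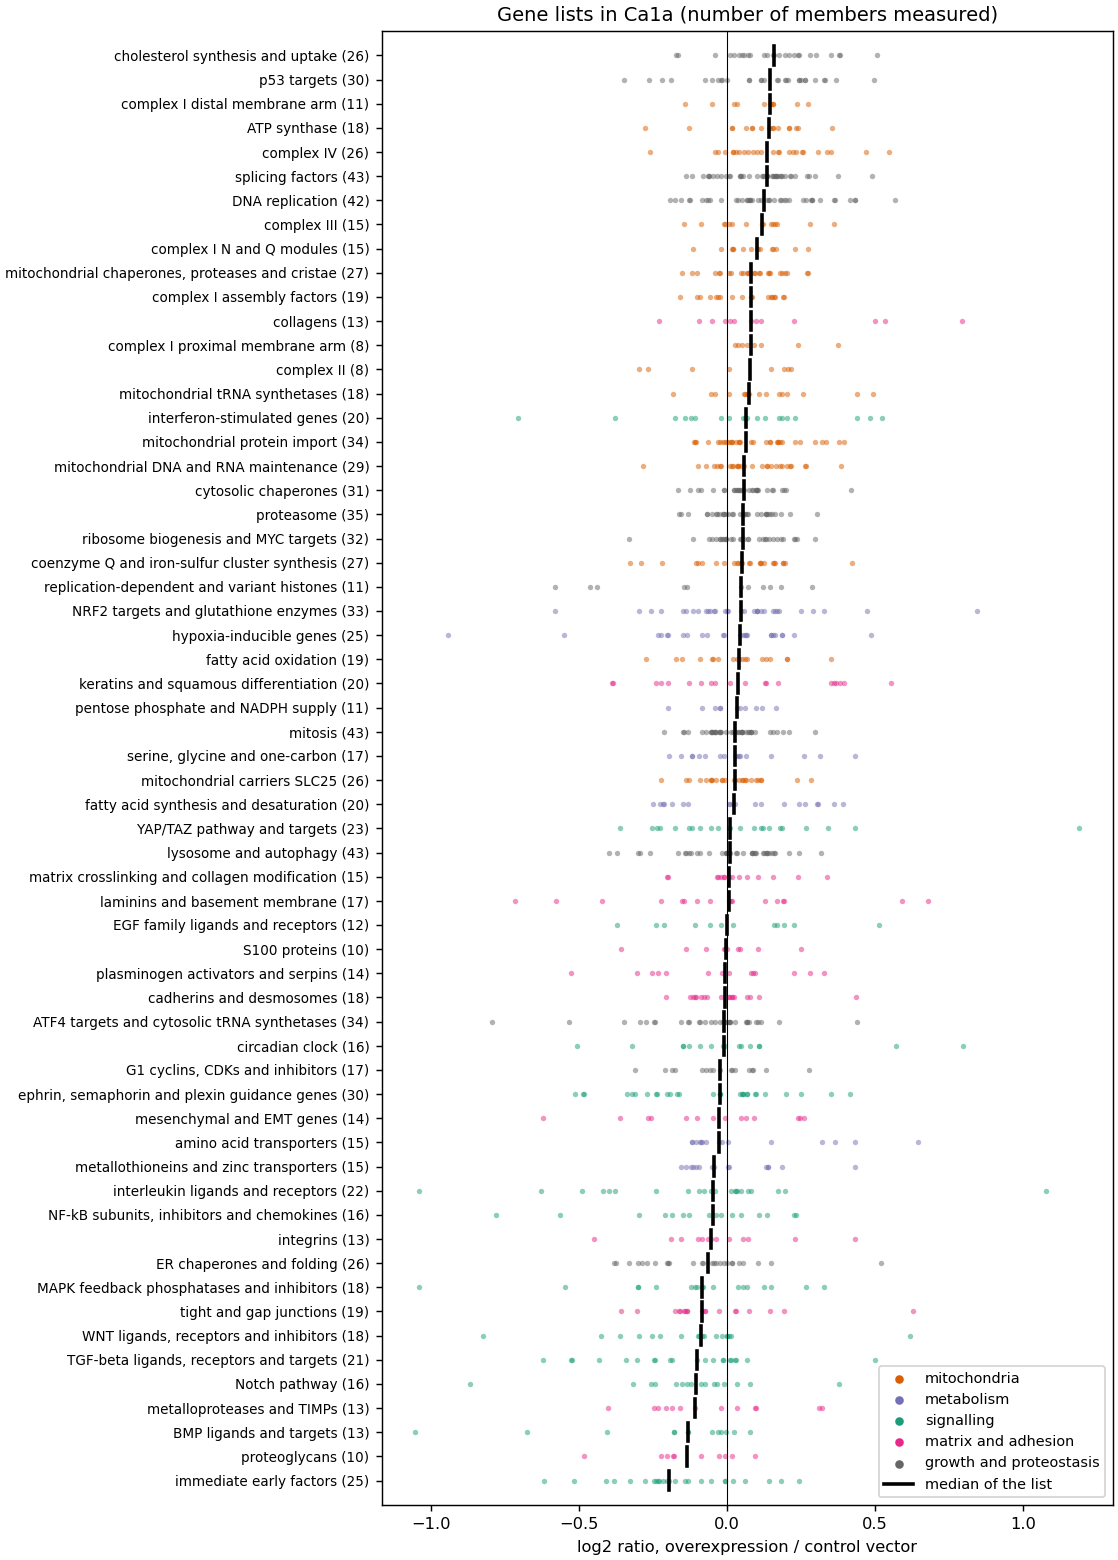
Log2 ratio of overexpression to control for the measured members of 60 gene lists (points, coloured by role) and the median of each list (black bars), sorted by median, with the number of measured members in brackets. Medians run from -0.20 for immediate early factors to 0.16 for cholesterol synthesis and uptake, and in all lists but that of the complex I proximal membrane arm members lie on both sides of 0.

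Nuclear genes of the respiratory chain stood slightly higher in the overexpression library in all 5 complexes, with medians between 0.08 and 0.15 by counts and between 0.04 and 0.13 in FPKM. Of the complex I subunits of the distal membrane arm, the part on which TMEM126A acts, 6 of 11 members were higher, 0 lower and 5 within counting error (median 0.15). The proximal membrane arm had 2 of 8 higher and 0 lower, median 0.08, and the N and Q modules of the matrix arm 5 of 15 higher and 0 lower, median 0.10. In FPKM the medians lay closer together, at 0.11 for the distal arm, 0.09 for the proximal arm and 0.11 for the N and Q modules. NDUFB3 of the distal arm, higher by counts, was lower in FPKM. The arms were not tested against each other. In the distal arm NDUFB1 was 1.21-fold higher (1.05 to 1.40) and NDUFB5 1.11-fold higher (1.05 to 1.18), and in the proximal arm NDUFS5 had 2001 and 2596 reads, 1.30-fold higher (1.22 to 1.38). Assembly factors of complex I had 4 of 19 higher and 0 lower, median 0.08, a share near the 20.2% of all genes, and a median of 0.02 in FPKM. ACAD9, one of these factors, was 1.12-fold higher (1.03 to 1.21). No member of these 4 lists was lower beyond counting error, and none was called at 1.5-fold.

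Complex IV, cytochrome c oxidase, had 13 of 26 higher and 0 lower, median 0.14. Its copper chaperone gene COX17 had 420 and 582 reads, 1.39-fold higher (1.22 to 1.57), and its assembly factor gene COA3 was 1.46-fold higher (1.19 to 1.80). Complex III had 8 of 15 higher and 0 lower, median 0.12, with the assembly factor gene UQCC1 1.29-fold higher (1.15 to 1.44), and complex II 3 of 8 higher and 1 lower, median 0.08 (0.04 in FPKM). ATP synthase had 13 of 18 higher and 1 lower, median 0.14, with ATPAF2, an assembly factor gene, 1.28-fold higher (1.12 to 1.46), and ATPIF1, the gene of its inhibitor, 1.18-fold higher (1.11 to 1.26). Mitochondrial protein import had 16 of 34 higher and 0 lower, median 0.06, with TOMM6 of the outer membrane translocase, 1.31-fold higher (1.21 to 1.43), and TIMM21, 1.30-fold higher (1.17 to 1.45). Chaperones, proteases and cristae genes had 11 of 27 higher and 3 lower, median 0.08, with the stress protease gene OMA1 1.21-fold higher (1.07 to 1.36). Mitochondrial tRNA synthetases had 7 of 18 higher and 0 lower, median 0.07, with EARS2, 1.36-fold higher (1.246 to 1.48), and the amidotransferase subunit gene GATB, 1.41-fold higher (1.22 to 1.63). Genes that maintain mitochondrial DNA and RNA had 10 of 29 higher and 1 lower, median 0.06, and here the RNA polymerase gene POLRMT was 1.22-fold lower (1.10 to 1.35). Mitochondrial carriers had 5 of 26 higher and 2 lower, median 0.03, fatty acid oxidation 7 of 19 higher and 5 lower, median 0.04 and coenzyme Q and iron-sulfur cluster synthesis 8 of 27 higher and 2 lower, median 0.05.

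The largest median of all lists, 0.16, belonged to cholesterol synthesis and uptake, where 18 of 26 members were higher, 1 lower and 7 within counting error. The lanosterol synthase gene LSS, HMGCS1, which makes the precursor of mevalonate, and SQLE, the squalene epoxidase gene, were 1.42-fold, 1.30-fold and 1.28-fold higher. Fatty acid synthesis and desaturation was mixed, with 8 of 20 higher and 6 lower, median 0.03. The stearoyl-CoA desaturase gene SCD, among the most abundant transcripts of the cells, had 92545 reads in the control and 118951 in the overexpression library, 1.29-fold higher (1.27 to 1.30). Hypoxia-inducible genes had 10 of 25 higher and 8 lower, median 0.04 (the mean of the members was below 0), with NDRG1 and ANGPTL4 at the low end and the aldolase gene ALDOC, 1.40-fold higher (1.30 to 1.51), at the high end. NRF2 targets and glutathione enzymes had 14 of 33 higher and 11 lower, median 0.05. In this list the ferritin heavy chain gene FTH1 had 33024 reads in the control and 22103 in the overexpression library, 1.49-fold lower (1.47 to 1.52), while the glutathione synthesis gene GCLC was 1.254-fold higher (1.21 to 1.30). Pentose phosphate and NADPH supply had 3 of 11 higher and 1 lower, median 0.04, and serine, glycine and one-carbon enzymes 5 of 17 higher and 5 lower, median 0.03. Amino acid transporters had 5 of 15 higher and 4 lower, median -0.03, and metallothioneins and zinc transporters 5 of 15 higher and 2 lower, median -0.04, but the signs of these medians turned under 1 and 3 of the other settings.

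Immediate early factors, which respond within minutes to growth factors and stress, had the lowest median of all lists, -0.20: 2 of 25 members were higher, 16 lower and 7 within counting error. EGR1 had 2734 reads in the control and 1910 in the overexpression library, 1.43-fold lower (1.35 to 1.52), IER2 2525 and 1905 reads, 1.33-fold lower (1.248 to 1.41), and JUND 1178 and 904 reads, 1.30-fold lower (1.19 to 1.42). Feedback regulators of MAP kinases had 5 of 18 higher and 9 lower, median -0.08. The member with the lowest ratio was IL11, a cytokine and not a feedback regulator. The phosphatase gene DUSP1 was 1.46-fold lower (1.39 to 1.53), whereas DUSP6, a phosphatase gene specific for ERK, was 1.04-fold higher (1.01 to 1.07). EGF family ligands and receptors had 5 of 12 higher and 5 lower, median 0.0012 (the sign turned under 8 of the other settings), with the ligand gene HBEGF 1.29-fold lower (1.24 to 1.35) and AREG 1.12-fold higher (1.10 to 1.15).

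TGF-beta genes had 1 of 21 higher and 11 lower, median -0.10. Among the latent TGF-beta binding proteins LTBP1 was 1.44-fold lower (1.27 to 1.63), LTBP4 1.35-fold lower (1.22 to 1.49) and LTBP2 1.42-fold higher (1.35 to 1.49). BMP ligands and targets had 0 of 13 higher and 6 lower, median -0.13, and ID1, a direct BMP target gene, had 5353 and 4732 reads, 1.13-fold lower (1.09 to 1.18). Notch genes had 1 of 16 higher and 9 lower, median -0.10, WNT genes 1 of 18 higher and 4 lower, median -0.09 and NF-kB subunits, inhibitors and chemokines 3 of 16 higher and 5 lower, median -0.05. RELB, a subunit gene of NF-kB, was 1.48-fold lower (1.18 to 1.85). Interleukin ligands and receptors had 3 of 22 higher and 7 lower, median -0.05, with IL1A 1.40-fold lower (1.19 to 1.65) and IL1B 1.33-fold lower (1.18 to 1.504). Interferon-stimulated genes had 5 of 20 higher and 3 lower, median 0.07 (below 0 with no filter on low counts), with TRIM22 1.44-fold higher (1.33 to 1.55) and DDX58, the RIG-I gene, 1.40-fold higher (1.20 to 1.63). Guidance genes had 6 of 30 higher and 10 lower, median -0.02 (above 0 in FPKM and with the GC trend removed), with SEMA7A 1.43-fold lower (1.32 to 1.54) and SEMA3C 1.28-fold higher (1.17 to 1.39). Clock genes had 2 of 16 higher and 4 lower, median -0.01 (the mean was above 0).

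Among matrix and adhesion genes the lists were mostly mixed. Collagens had 5 of 13 higher and 1 lower, median 0.08, with COL12A1 1.41-fold higher (1.28 to 1.57). Laminins and basement membrane genes had 5 of 17 higher and 6 lower, median 0.01, a median whose sign turned with TMM, with FPKM, with the mean and with the GC trend removed. There TNC, the tenascin-C gene, was 1.49-fold lower (1.28 to 1.74). Integrins had 3 of 13 higher and 7 lower, median -0.05, and ITGA5, the alpha chain of the fibronectin receptor, had 10663 reads in the control and 7806 in the overexpression library, 1.37-fold lower (1.33 to 1.41). Proteoglycans had 0 of 10 higher and 4 lower, median -0.13, and the syndecan gene SDC1 had 26837 reads in the control and 19229 in the overexpression library, 1.40-fold lower (1.37 to 1.42). Metalloproteases and TIMPs had 4 of 13 higher and 4 lower, median -0.11, with TIMP1 1.32-fold lower (1.22 to 1.43) and TIMP2 1.24-fold higher (1.08 to 1.43). With the trend on GC content removed the medians of the last 2 lists were -0.07 and -0.04. Plasminogen activators and serpins had 4 of 14 higher and 5 lower, median -0.01 and matrix crosslinking genes 4 of 15 higher and 2 lower, median 0.01, and the signs of both turned under 5 and 4 of the settings.

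Junction genes and keratins were also mixed. Cadherins and desmosomes had 2 of 18 higher and 6 lower, median -0.01, and the periplakin gene PPL had 18221 reads in the control and 24664 in the overexpression library, 1.35-fold higher (1.33 to 1.38). Tight and gap junction genes had 3 of 19 higher and 7 lower, median -0.09. Keratins and squamous differentiation genes had 9 of 20 higher and 8 lower, median 0.04. Within it KRT15 had 50601 and 64547 reads, 1.28-fold higher (1.26 to 1.29), KRT5 18880 and 24263 reads, 1.29-fold higher (1.26 to 1.31), and KRT17 27165 and 26396 reads, 1.03-fold lower (1.01 to 1.05), and the basal cell factor gene TP63 was 1.18-fold lower (1.08 to 1.29). S100 genes had 1 of 10 higher and 2 lower, median -0.0038, with S100P 1.28-fold lower (1.23 to 1.33), and mesenchymal genes 6 of 14 higher and 4 lower, median -0.03, with VIM 1.20-fold lower (1.16 to 1.246). The medians of cadherins and S100 genes were so near 0 that their signs turned under 1 and 2 settings.

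The last lists cover growth and protein homeostasis. DNA replication genes had 17 of 42 higher and 2 lower, median 0.13, among them the clamp gene PCNA, 1.29-fold higher (1.18 to 1.40), and RPA3 of the single-strand binding complex, 1.48-fold higher (1.27 to 1.73). Mitosis genes had 11 of 43 higher and 5 lower, median 0.03 (below 0 in FPKM), and G1 cyclins, CDKs and inhibitors 3 of 17 higher and 3 lower, median -0.02 (above 0 with the GC trend removed). Targets of p53 had 19 of 30 higher and 4 lower, median 0.15, with PLK2 1.29-fold higher (1.18 to 1.41) and SESN2, which is also an ATF4 target, 1.27-fold lower (1.21 to 1.34). Splicing factors had 24 of 43 higher and 5 lower, median 0.13, with the kinase gene CLK4 1.30-fold higher (1.15 to 1.46), and ribosome biogenesis and MYC targets 14 of 32 higher and 2 lower, median 0.05. Histones had 4 of 11 higher and 5 lower, median 0.05 (below 0 in FPKM and by the members' mean), with the linker histone gene H1FX 1.496-fold lower (1.41 to 1.59) and H2AFX 1.38-fold lower (1.24 to 1.52).

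Cytosolic chaperones had 15 of 31 higher and 4 lower, median 0.06, and HSP90AA1 had 18435 reads in the control and 24623 in the overexpression library, 1.34-fold higher (1.31 to 1.36). Endoplasmic reticulum chaperones and folding genes had 3 of 26 higher and 11 lower, median -0.06, with DNAJB9 1.30-fold lower (1.17 to 1.44) and DNAJC3 1.26-fold lower (1.18 to 1.34). The member with the largest ratio went the other way: AGR2, with 97 and 139 reads, was 1.43-fold higher (1.10 to 1.88). The difference between the cytosolic and endoplasmic reticulum lists was not tested. Proteasome genes had 12 of 35 higher and 4 lower, median 0.06, ATF4 targets with cytosolic tRNA synthetases 6 of 34 higher and 14 lower, median -0.01, and lysosome and autophagy genes 15 of 43 higher and 10 lower, median 0.01 (below 0 with TMM). In the last of these the cathepsin gene CTSB was 1.29-fold lower (1.23 to 1.37).

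The knockdown of TMEM126A in MDA-MB-231 changes the level of the gene in the opposite direction. The comparisons share no library but differ in cell line, medium and vector. In MDA-MB-231, 11091 genes had a mean of at least 100 normalized counts, of which 18.8% were higher and 12.6% lower beyond counting error in the knockdown library. Of the genes called higher in Ca1a, TMEM126A left out, 32 were measured there: 11 were higher, 3 lower and 18 within counting error with knockdown. Of the genes called lower, 44 were measured: 11 were higher, 7 lower and 26 within. Opposite sides were thus seen for 3 of 32 and 11 of 44 genes. Of all genes measured in both lines, 18.1% were higher and 13.4% lower with knockdown. Across the 9581 genes measured in both lines the log2 ratios had a Pearson r of 0.0553, as a description over genes, which are not independent.

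**Figure D4:**
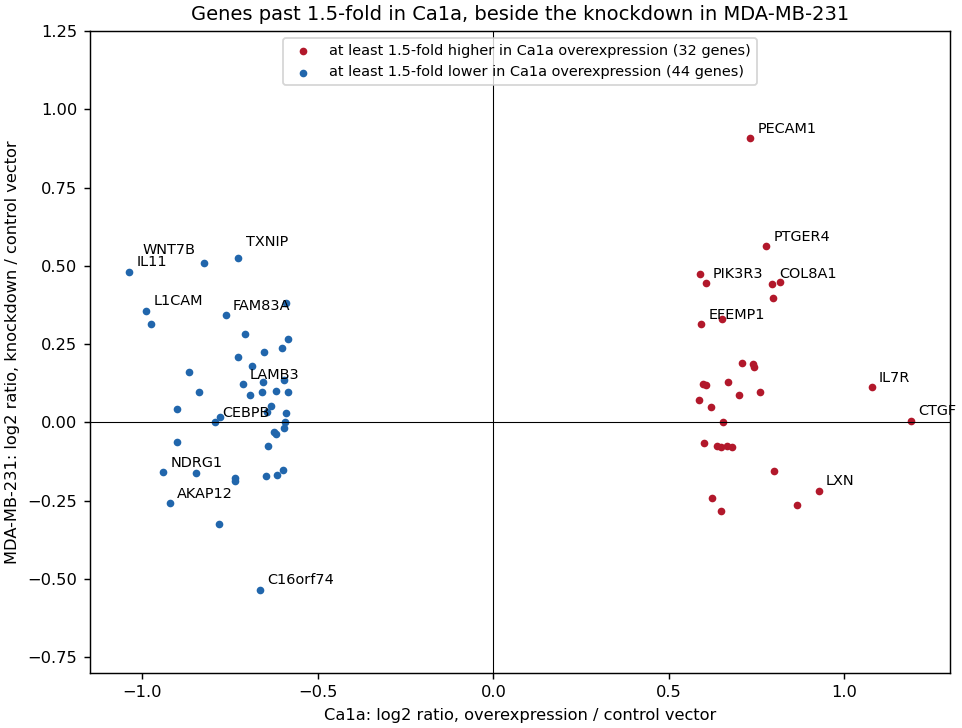
Log2 ratio of overexpression to control in Ca1a (horizontal axis) against log2 ratio of knockdown to control in MDA-MB-231 (vertical axis) for the 76 genes called in Ca1a and measured in both lines, TMEM126A left out. Red points (higher in Ca1a) and blue points (lower in Ca1a) both spread around 0 on the vertical axis, from -0.53 for C16orf74 to 0.91 for PECAM1.

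Among genes on opposite sides, TXNIP was 1.44-fold higher with knockdown (lower bound 1.38), IL11 1.40-fold higher (1.28 to 1.52), WNT7B 1.42-fold higher (1.32 to 1.54) and L1CAM 1.28-fold higher (1.21 to 1.36). LAMB3 was 1.09-fold higher (1.06 to 1.11). Genes higher in both comparisons included PECAM1, 1.88-fold higher (1.45 to 2.45) with knockdown, PTGER4, 1.48-fold higher (1.23 to 1.78), and COL8A1, 1.36-fold higher (1.30 to 1.42). AKAP12, NDRG1 and EGR1 were lower in both, by 1.20-fold, 1.12-fold and 1.29-fold with knockdown. CTGF was abundant in MDA-MB-231, with 4481 normalized counts in its control, and its interval with knockdown ran from 0.963 to 1.05. In 16 of the 46 higher and 18 of the 62 lower genes the MDA-MB-231 control stood under 1 FPKM, PECAM1 and PIK3R3 among them. FOXD1 and FAM110C, for example, had 0 normalized counts in that control. The share of all tested genes under 1 FPKM there was not counted. With TMEM126A left out, 9581 of the 10238 genes tested in Ca1a were measured in MDA-MB-231, beside 32 of the 46 higher and 44 of the 62 lower genes.

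The ratio of counts moved with the GC content of the transcripts. In the highest quintile of genes by transcript GC content (57.5% to 73.9%) the median log2 ratio was -0.06, with 9.68% of genes higher and 30.9% lower, while the other quintiles had medians between 0.00 and 0.03. In FPKM this quintile had a median of -0.0192, close to the -0.0166 of all genes. FPKM was not free of a trend on GC content, however. Its median was lowest, at -0.0435, in the quintile of lowest GC content and highest, at 0.0019, in quintile 4. Genes called lower had a median GC content of 54.7%, genes called higher 45.8% and all tested genes 47.4%. Immediate early genes, at a median of 53.9%, were among the GC-rich lists. Their median was -0.18 with the trend removed. By transcript length the medians ran from 0.03 in the shortest to -0.01 in the longest quintile by counts, and from 0.02 to -0.05 in FPKM. Among chromosomes, the gene-dense and GC-rich chromosome 19 had the lowest median, -0.04 over 627 genes, and the others lay between -0.01 and 0.03. By kind of gene, 4 of 250 long noncoding RNAs were called higher and 6 lower, and 3 and 2 of 269 pseudogenes. Over all tested genes the shares were 0.449% higher and 0.606% lower. In either direction 4% of long noncoding RNAs, 1.86% of pseudogenes and 0.957% of protein-coding genes were called. In the lowest quintile of all genes by mean count the share was 3.52%, and the part of read number was not tested. Pseudogenes stood higher beyond counting error in 30.9% of cases, against 20.0% of 9718 protein-coding genes. The part of GC content in any single difference was not tested.

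**Figure D5:**
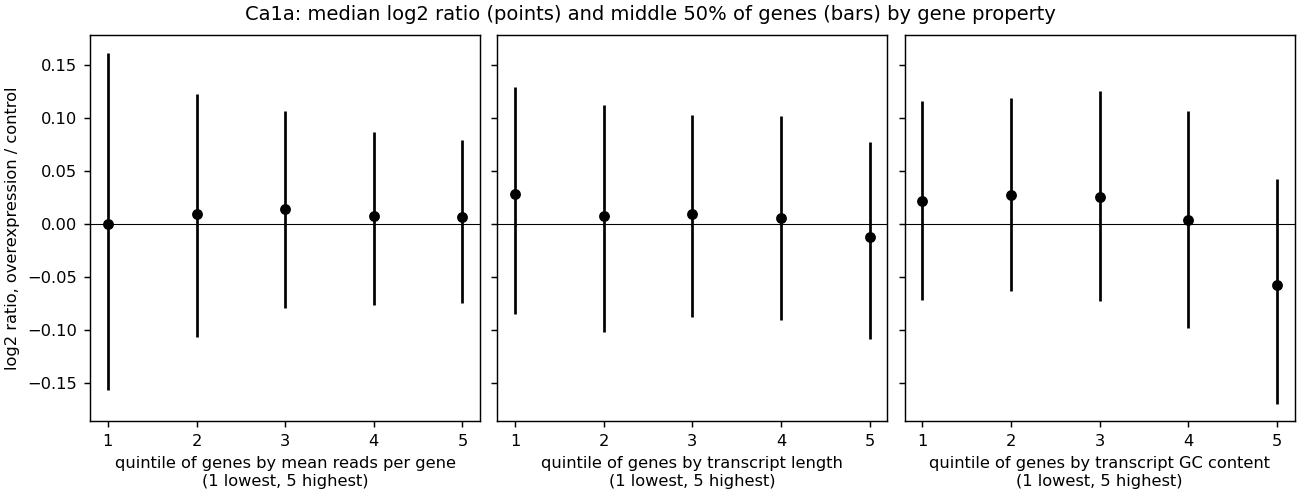
Median log2 ratio of overexpression to control (points) and the middle 50% of genes (bars) in quintiles of the tested genes by mean reads, transcript length and transcript GC content. The medians stay between -0.01 and 0.03 in all quintiles but the one highest in GC content, at -0.06, and the bars narrow as reads rise.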

How the data were processed

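RNA from 4 cultures was sequenced, 1 library per group, and the 2 Ca1a libraries carry the results. The submitters' processing notes list the tools HISAT2, Cufflinks, HTSeq and DESeq. As builds they list GRCh38.p5 and hg38. Not given in the sources used here were versions, roles and strand settings. The deposited tables hold read counts per gene, whole numbers in Ca1a. For MDA-MB-231 they hold normalized counts, a signal that the authors divided by a size factor. The deposited FPKM values were used as a check.

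From these, log2 ratios of counts were taken without rescaling (python 3.11.15, numpy 2.4.6, pandas 2.3.3), with intervals from scipy 1.17.1. TMM factors came from edgeR 4.0.16 in R 4.3.3. With 1 library a side no test was made. Positions, length and GC content came from GENCODE release 29, which matched 9870 of 10238 genes (96.4%), and promoters from RefSeq (GRCh38.p14), which matched 8279.

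Genes were named by rule: TMEM126A, TMEM126B, on each side the 25 protein-coding and up to 6 noncoding called genes with intervals farthest from 1, up to 4 members of each list with the largest ratios beyond counting error, and the markers. AREG, ARRDC3, ARRDC4, CCDC107, CIPC, COL17A1, DUSP6, FGFR1, GFM1, HES1, HES6, ID1, IFNGR2, IL1B, KRT15, LAMA3, LTBP4, MFSD1, PCNA, SEMA3C and UCA1, and the promoters shown, were chosen after their values were seen. The members and the 60 lists were chosen with earlier results of these data known. Alternatives changed the scaling, the level, the fold, a pseudocount, the unit and the GC trend. Some genes of the lists are not reported here by name.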

Additional observations from a re-analysis of the deposited data

How the results depend on the processing

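The 46 genes called higher and 62 genes called lower depended most on the minimum level and on the fold. A mean of at least 20 reads gave 154 and 166 genes, at least 50 gave 90 and 108, at least 200 gave 23 and 32, and no minimum gave 224 and 225. At the lower fold limit tried 380 genes were higher and 382 lower, and at 2-fold 3 and 3. Scaling by total reads gave 44 and 66, by median of ratios 46 and 62 and by TMM 43 and 70. A pseudocount of 1 gave 46 and 59, a pseudocount of 5 gave 41 and 56, and FPKM gave 47 and 66. These scalings moved the median of all genes by at most 0.011 on the log2 scale. Removal of the trend on GC content, chosen after seeing the data, gave 44 and 53, and 39 of 43 higher and 50 of 58 lower genes with a GC value remained called. Of 2010 values of single named genes under other settings, 1953 stayed, 52 moved and 5 reversed. The reversed log2 ratios were CLDN4 at 0.00082 in FPKM, GPC1 at 0.0020 in FPKM and 0.0296 with the GC trend removed, ITGB4 at 0.0638 with the GC trend removed, and NDUFB3 at -0.0542 in FPKM. The cause was not tested. In 17 of 60 lists the median changed sign in at least 1 setting. No paired analysis was possible because each group holds 1 library. The spread between cultures is unknown. Depth limits the genes of low count: COL8A1, with 101 and 175 reads, had an interval of its fold difference from 1.35 to 2.24.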
